A study of Mus musculus with 25 samples.

Results

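Phase I and phase II xenobiotic enzymes were followed in the duodenum of mice that carried an Aldh2 knock-in (KI) or were wild type (WT), with and without dietary ethanol. The members are the genes of the cytochrome P450 families Cyp1, Cyp2 and Cyp3, the UDP-glucuronosyltransferase families Ugt1 and Ugt2, the carboxylesterases Ces1, Ces2 and Ces3 and the sulfotransferases Sult1 and Sult2. They were chosen by gene symbol alone, without Cyp2e1, and 67 of the 17007 genes in the deposited count table qualified: 36 P450 genes, 14 carboxylesterases, 11 glucuronosyltransferases and 6 sulfotransferases.

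Polyadenylated RNA of the whole duodenum was sequenced from male mice that were 8 weeks old when an 8-week diet began. KI_Half (n = 6) were Aldh2KI mice on the lower ethanol diet, which held 2.5% ethanol and came with gavages of 2 g/kg ethanol, 2 times a week. KI_Con (n = 4) were Aldh2KI mice on control diet. WT_Full (n = 4) were C57BL/6N mice on the higher ethanol diet, with 5% ethanol and gavages of 4 g/kg. WT_Half (n = 7) were C57BL/6N mice on the lower ethanol diet, and WT_Con (n = 4) were C57BL/6N mice on control diet. The ethanol groups had a last gavage of 5 g/kg and were killed 9 hours after it, so the diet and the last dose cannot be told apart. Aldh2 encodes the mitochondrial enzyme that clears acetaldehyde, the first product of ethanol oxidation; the allele itself is not described in the labels. The labels do not say that each library is from a separate mouse, so p-values measure the spread between libraries.

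In phase I, P450 enzymes add or uncover a reactive oxygen group on a lipophilic compound, and carboxylesterases split ester and amide bonds. In phase II, glucuronosyltransferases and sulfotransferases attach glucuronic acid or sulfate, which makes the product soluble enough for export. In the small intestine these enzymes sit mainly in the absorptive enterocytes of the villus, where they act on drugs, plant compounds and steroids before these reach the liver. Many of their genes are switched on by ligand-activated factors such as the aryl hydrocarbon receptor, the pregnane X receptor and the constitutive androstane receptor.

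Library totals ran from 24.6 M to 44.8 M counts, with a median of 32.0 M. Some libraries stood apart in genes of other cell types. WT_Con replicate 3 had 14508 summed CPM (a library's counts scaled to a common total) of gastric markers, against a WT_Con median of 16.8. Brunner gland markers summed to 35.1 to 53685 CPM in WT_Con, with a median of 21929 CPM. The medians of the other groups ran from 43.7 CPM in WT_Full to 643 CPM in KI_Con. Ctrb1, a pancreatic acinar gene, was at 993 and 317 CPM in KI_Con replicates 1 and 2, and at 1.93 and 1.66 CPM in the other KI_Con libraries. In WT_Con it was at 477, 1.03, 404 and 52.0 CPM in replicates 1 to 4. All libraries of the ethanol groups had at most 8.76 CPM of it. WT_Full replicate 4 had the lowest Alb of all 25 libraries, at 72.2 CPM against 337 to 1086 CPM in the other 24. In these bulk samples fewer cells of a type and less RNA per cell cannot be told apart.

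The level of the 67 genes spanned several orders of magnitude: 13 averaged at least 100 CPM over all libraries, 20 averaged between 10 and 100 CPM and 34 less than 10 CPM, of which 6 were under 1 CPM. Per kilobase of exon, the highest level was that of Cyp3a13, a drug-oxidising P450 of the intestine, at 335 CPM per kb. Ces2e and Ces2c, esterases of the gut and liver, followed at 265 and 122 CPM per kb, and Cyp2d26 stood between them at 212 CPM per kb. Sult1d1 at 121 CPM per kb, which sulfates catecholamines and phenols, and Ugt2b34 at 118 CPM per kb led their families. The duodenum thus held high RNA levels of at least 1 gene of each of the P450, esterase, glucuronosyltransferase and sulfotransferase classes. For 27 members over 10% of the 50-base windows of their transcripts also occur in another gene, so their counts can be split or lost in counting: this covers Ugt1a1, Ugt1a6a, Ugt1a7c and Ugt1a9, which share their last exons, and pairs such as Ugt2b5 and Ugt2b38.

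**Figure D1:**
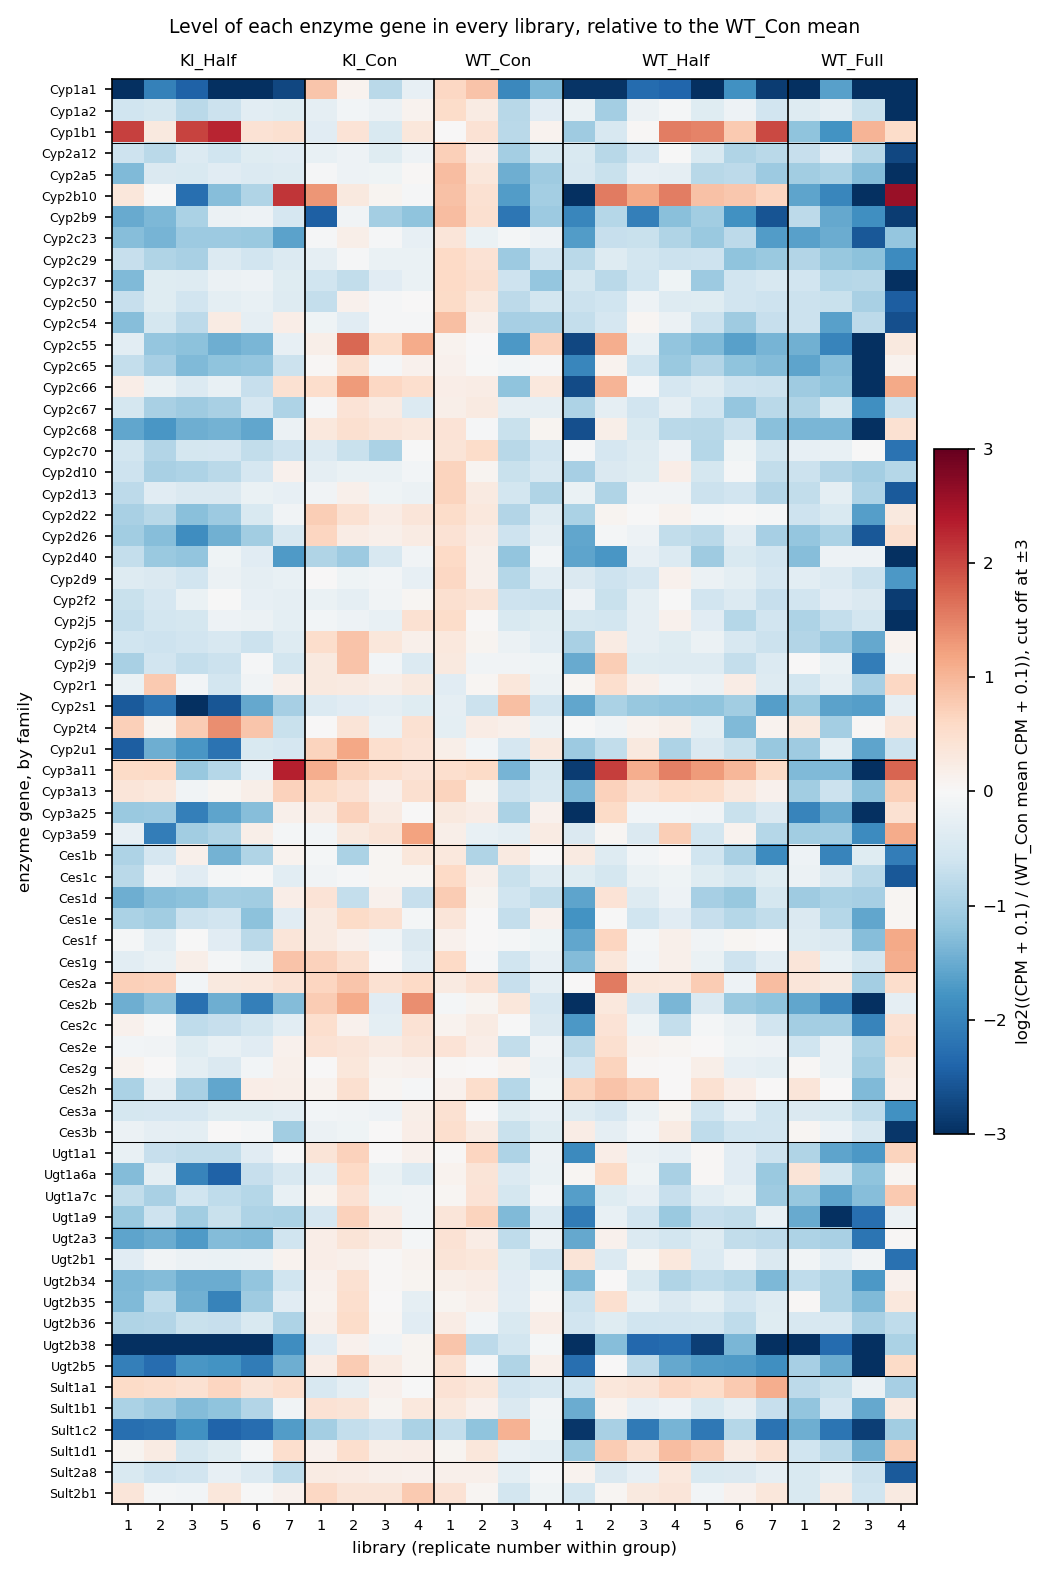
Level of each of the 67 enzyme genes (rows, ordered by family) in each of the 25 libraries (columns, by group), as log2 of CPM + 0.1 over the WT_Con mean + 0.1. Colours stop at ±3. Blue, for below WT_Con, prevails in KI_Half, while WT_Full replicate 4 parts into 21 genes at their lowest level of the 25 libraries and 46 others.

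Ethanol in Aldh2 knock-in mice. Of the 67 genes, 33 fell and 2 rose in KI_Half relative to KI_Con (edgeR quasi-likelihood F test, Benjamini-Hochberg adjusted p under 0.05). Of all 16944 genes tested, 37.9% passed, 17.9% as lower and 20% as higher. The median log2 fold change was -0.50 over the 67 genes and 0.00 over all genes. All 6 KI_Half libraries lay below all 4 KI_Con libraries for 33 of the 67 genes, against 13.9% of all genes, and above them for 1 gene, Sult1a1, against 13.4%.

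Of the 35 genes called, 28 were called again in each of the 10 fits that left out 1 library; Ces3a, Cyp1a2, Cyp1b1, Cyp2c29, Cyp2c66, Cyp2j9 and Sult2b1 were lost in at least 1 of them. Without KI_Con replicates 1 and 2, 19 genes were called, all lower, and 15.1% of all genes. The rises of Cyp1b1 and Sult1a1 were not called in that fit, nor were 14 of the falls: Ces2e, Ces3a, Cyp1a2, Cyp2c29, Cyp2c66, Cyp2c67, Cyp2j9, Cyp3a25, Sult2a8, Sult2b1, Ugt1a1, Ugt1a7c, Ugt2b35 and Ugt2b36. The summed level of 12 enterocyte markers was 20201 to 38997 CPM in KI_Half and 36776 to 52118 CPM in KI_Con, and 8 of the 12 fell, with a median log2 fold change of -0.69. Of 6 crypt markers, summed to 374 to 479 CPM in KI_Half and 191 to 321 CPM in KI_Con, 3 rose and 1 fell. All 7 acinar markers fell (13.2 to 22.7 summed CPM in KI_Half, 18.3 to 4493 in KI_Con), as did 4 of 5 T cell markers (11.6 to 47.1 summed CPM in KI_Half, 65.5 to 83.7 in KI_Con). Of 6 goblet markers 3 fell (5255 to 6840 summed CPM in KI_Half, 7381 to 11498 in KI_Con), as did 2 of 4 gastric markers (0.623 to 5.98 summed CPM in KI_Half, 0.690 to 23.0 in KI_Con). None of these lists had all of its markers at 0 in any library, and their part in the fall of the enzyme genes was not tested.

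**Figure D2:**
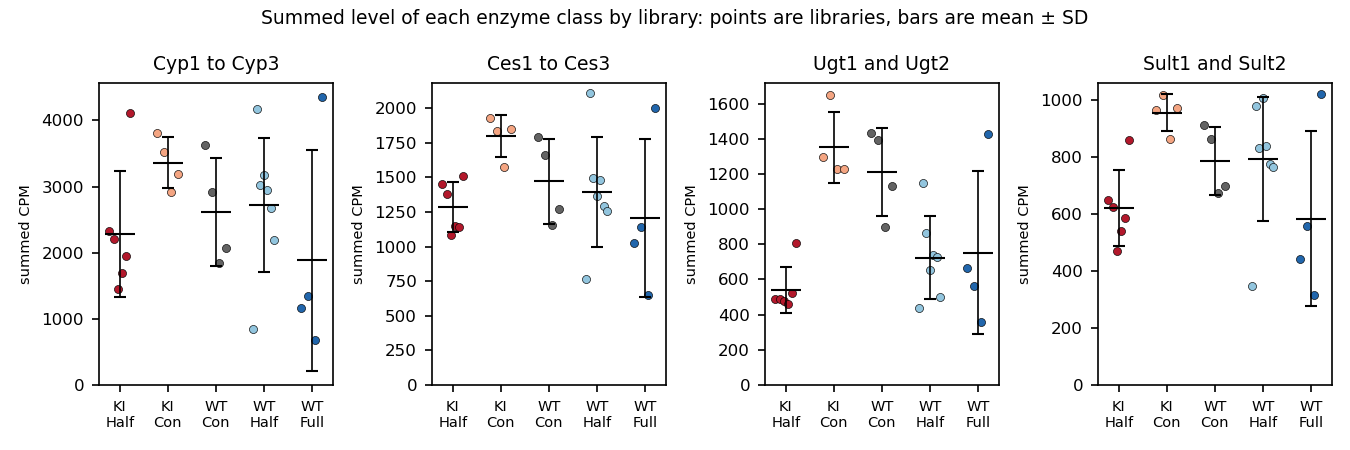
Summed CPM of the P450, carboxylesterase, glucuronosyltransferase and sulfotransferase genes in each library (points), with mean ± SD per group. The 6 KI_Half libraries lie below the 4 KI_Con libraries for the carboxylesterases, glucuronosyltransferases and sulfotransferases, and WT_Full replicate 4 lies at or near the top of each panel.

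The class sums show how far apart the groups lay. Glucuronosyltransferase genes summed to 542 ± 131 CPM in KI_Half and 1351 ± 201 CPM in KI_Con (mean ± SD), and sulfotransferases to 621 ± 132 and 955 ± 65.2 CPM. Carboxylesterases summed to 1284 ± 183 CPM in KI_Half and 1796 ± 153 CPM in KI_Con. P450 genes summed to 2289 ± 951 CPM in KI_Half and 3358 ± 385 CPM in KI_Con, with KI_Half replicate 7 at 4116 CPM, above every KI_Con library. The sums are dominated by the few abundant genes: Cyp3a13 alone made 64.0% of the Cyp3 sum, Ces2e 56.1% of the Ces2 sum and Ugt2b34 75.5% of the Ugt2 sum.

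**Figure D3:**
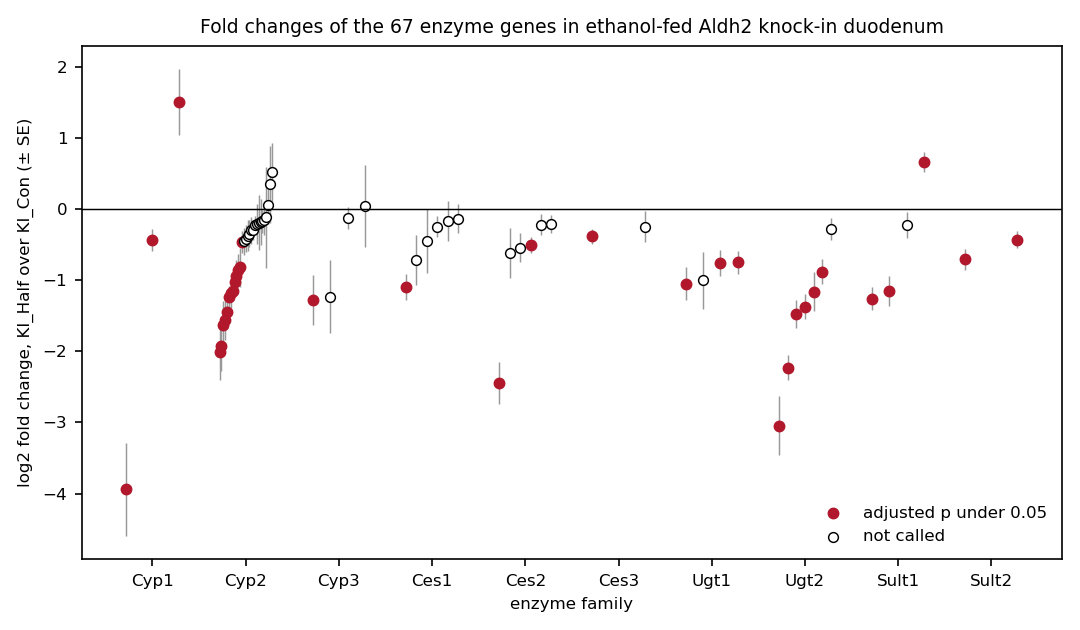
Log2 fold change (KI_Half over KI_Con, ± SE) of each of the 67 genes by family; filled points passed an adjusted p under 0.05 and open points did not. All 7 Ugt2 genes and all 14 carboxylesterases lie below 0, and Cyp1b1 and Sult1a1 are the 2 filled points above it.

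UDP-glucuronosyltransferases. All 4 Ugt1 and 7 Ugt2 genes had negative log2 fold changes in KI_Half against KI_Con, and 9 of the 11 fell. The Ugt2 genes, which conjugate steroids, bile acids and many drugs, had a median log2 fold change of -1.37, with 6 of 7 lower and Ugt2b1 not called at -0.27 ± 0.16 (SE). The 7 genes lie in 1 cluster on chromosome 5 (GRCm38), from Ugt2b34 at chr5:86889767-86906937 to Ugt2b38 at chr5:87409942-87424203. Ugt2b38 and Ugt2b5 (chr5:87124960-87140318) showed the largest falls and share 37.4% and 41.7% of their transcript windows with other genes, mostly with each other. Their upstream sequences are shown because the pair moved alike, beside Ugt2b34, the most abundant gene of the cluster. Each is the 250 bases before the RefSeq start on GRCm38.p6, 5′ to 3′ on the minus strand of the chromosome; capitals mark AGGTCA, the core that many nuclear receptors bind. The windows are chr5:87140341-87140590 for Ugt2b5, chr5:87424204-87424453 for Ugt2b38 and chr5:86906938-86907187 for Ugt2b34.
Ugt2b5: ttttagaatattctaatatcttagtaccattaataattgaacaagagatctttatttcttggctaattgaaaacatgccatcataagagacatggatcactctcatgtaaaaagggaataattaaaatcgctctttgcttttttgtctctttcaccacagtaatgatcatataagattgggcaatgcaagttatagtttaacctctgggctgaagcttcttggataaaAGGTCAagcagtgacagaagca
Ugt2b38: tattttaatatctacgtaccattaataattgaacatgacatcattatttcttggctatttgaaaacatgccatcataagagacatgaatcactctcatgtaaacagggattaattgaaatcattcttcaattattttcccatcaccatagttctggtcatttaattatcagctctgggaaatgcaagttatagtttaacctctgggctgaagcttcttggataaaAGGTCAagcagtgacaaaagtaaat
Ugt2b34: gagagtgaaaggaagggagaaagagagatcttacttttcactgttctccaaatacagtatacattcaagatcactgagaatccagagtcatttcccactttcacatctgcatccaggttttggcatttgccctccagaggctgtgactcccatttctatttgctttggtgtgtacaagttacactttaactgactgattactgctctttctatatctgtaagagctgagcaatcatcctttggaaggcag

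The windows of Ugt2b5 and Ugt2b38 were 81.5% identical over an alignment of 260 positions, and each holds AGGTCA, at 22 to 17 bases before the RefSeq start in Ugt2b5 and 25 to 20 in Ugt2b38. The RefSeq start of Ugt2b5 lies 22 bases from the nearest GENCODE transcript start and that of Ugt2b38 0 bases, so the Ugt2b5 position depends on the start used. The Ugt2b34 window was 50.7% identical to that of Ugt2b5 and has no AGGTCA on either strand. TATAAA is in none of the Ugt2b5, Ugt2b38 and Ugt2b34 windows on either strand. AGGTCA, on either strand, occurs in 18 of the 58 members with a RefSeq window (31.0%) and in 14% of 32817 windows of all genes. TATAAA, the TATA box, occurs in 19 of the 58 (32.8%) and in 12.4% of all windows. Each member counts with a single window, while the share of all windows takes every distinct start, so genes with several starts weigh more there. Both counts describe letters in these windows and say nothing of binding.

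Ugt2b38 had a lowest, median and highest level of 3.54, 8.51 and 24.7 CPM in KI_Half, against 71.5, 98.5, 83.7 and 94.7 CPM in KI_Con. Every KI_Half library lay below every KI_Con library, and the log2 fold change was -3.04 ± 0.42 (adjusted p = 0.000596). In wild-type mice it had 161, 52.5, 61.2 and 85.8 CPM in WT_Con, 1.04, 17.4 and 37.0 CPM (lowest, median, highest) in WT_Half, and 8.69, 17.96, 0.783 and 46.7 CPM in WT_Full. Neither wild-type ethanol group overlapped the controls, but the log2 fold changes of -2.30 ± 0.63 (WT_Half over WT_Con, adjusted p = 0.0778) and -2.29 ± 0.90 (WT_Full over WT_Con, adjusted p = 0.244) did not pass.

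Ugt2b5 had 8.08, 10.503 and 14.4 CPM (lowest, median, highest) in KI_Half, against 46.6, 67.3, 47.3 and 42.0 CPM in KI_Con. The KI groups stood far apart, with a log2 fold change of -2.23 ± 0.18 and the smallest adjusted p of all members, 9.26e-05. In WT_Con it had 55.1, 38.8, 21.2 and 44.3 CPM, in WT_Half 8.26, 12.5 and 39.9 CPM (lowest, median, highest), and in WT_Full 19.9, 14.1, 4.59 and 58.9 CPM. The wild-type groups overlapped, and replicate 4 held the highest of the WT_Full values.

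Ugt2b34 made up most of the family's RNA. It had 253, 284 and 470 CPM (lowest, median, highest) in KI_Half, against 778, 976, 735 and 750 CPM in KI_Con, and fell by 1.37 ± 0.18 on the log2 scale (adjusted p = 0.00048). Ugt2a3, a bile acid-conjugating enzyme in human cells, had 21.9, 27.0 and 46.9 CPM in KI_Half and 82.0, 93.1, 82.8 and 69.1 CPM in KI_Con. Its log2 fold change was -1.47 ± 0.20, and those of Ugt2b35 and Ugt2b36, both called, were -1.16 ± 0.27 and -0.88 ± 0.18. In none of these genes did a KI_Half library reach a KI_Con library.

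The Ugt1 genes are alternative first exons of 1 locus on chromosome 1 joined to common last exons, so the split of reads between them is uncertain. Ugt1a1, the bilirubin-conjugating enzyme (chr1:88211959-88218997), had 8.49, 10.1 and 13.97 CPM in KI_Half and 18.9, 23.1, 14.4 and 15.6 CPM in KI_Con, a fall of 0.76 ± 0.19 on the log2 scale (adjusted p = 0.00876). Ugt1a7c, which took 88.9% of the Ugt1 counts, had 108, 128 and 182 CPM in KI_Half and 227, 288, 195 and 198 CPM in KI_Con. It fell by 0.75 ± 0.16 and Ugt1a9 by 1.04 ± 0.23 on the log2 scale, while Ugt1a6a, at -0.998 ± 0.40, did not pass (adjusted p = 0.0695).

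Cytochrome P450 genes. Of the 36 P450 genes, 16 fell and 1 rose in KI_Half relative to KI_Con, with 2 lower and 1 higher in Cyp1, 13 lower of 29 in Cyp2 and 1 lower of 4 in Cyp3. The 3 Cyp1 genes, which oxidise aromatic compounds and are targets of the aryl hydrocarbon receptor, did not move together. Cyp1a1 (chr9:57687928-57703824), the classical target of that receptor, was nearly undetected with ethanol: 0 to 6 counts per library in KI_Half, against 18 to 51 counts in KI_Con. That is 0, 0.0528 and 0.183 CPM (lowest, median, highest) in KI_Half and 1.96, 1.15, 0.561 and 0.869 CPM in KI_Con, with no overlap and a fitted log2 fold change of -3.94 ± 0.65 (adjusted p = 0.00131).

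The same gene was low in both wild-type ethanol groups. It had 1.67, 1.99, 0.203 and 0.353 CPM in WT_Con, at most 0.228 CPM in WT_Half (0 to 8 counts per library), and 0, 0.270, 0 and 0 CPM in WT_Full (0 to 7 counts). Cyp1a1 was too low in those wild-type comparisons to pass the filter on low counts and was not tested there, and WT_Con replicate 3 lay below the highest library of either ethanol group. With all 25 libraries in 1 fit it was called lower in WT_Full and in WT_Half (adjusted p = 0.0218 and 0.0133), at log2 fold changes of -3.99 and -3.48; that fit called 8 members and 7.58% of all genes in WT_Full, and 4 members and 4.23% in WT_Half. The 250 bases before its start on the plus strand, chr9:57697363-57697612 (RefSeq, GRCm38.p6), is shown because the gene is the marker of that receptor's activity. It precedes a RefSeq start that is also a GENCODE transcript start and lies inside the gene span given above, which begins further upstream. Capitals mark GCGTG, the receptor's core motif, and TATAAA.
Cyp1a1: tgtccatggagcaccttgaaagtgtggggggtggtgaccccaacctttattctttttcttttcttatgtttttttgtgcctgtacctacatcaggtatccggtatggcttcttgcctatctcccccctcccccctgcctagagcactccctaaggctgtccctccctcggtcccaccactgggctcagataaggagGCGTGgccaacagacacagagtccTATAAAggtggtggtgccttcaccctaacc

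GCGTG starts 54 bases and TATAAA 30 bases before the Cyp1a1 start. GCGTG, on either strand, is in 6 of the 58 member windows (10.3%) and in 28.1% of all windows, counted in the same way as AGGTCA. The receptor-driven enhancer of this gene is known to lie further upstream than this window. Cyp1a2, a liver P450 next to Cyp1a1, had 3.11, 3.72 and 4.46 CPM in KI_Half and 4.58, 5.22, 4.93 and 6.00 CPM in KI_Con (log2 fold change -0.43 ± 0.16, adjusted p = 0.0492). Cyp1b1, an extrahepatic P450 of stromal cells among others, rose: it had 2.99, 6.73 and 12.03 CPM in KI_Half and 1.88, 3.22, 1.72 and 3.08 CPM in KI_Con. Its log2 fold change was 1.51 ± 0.47 (adjusted p = 0.0245), and the groups overlapped at the low end of KI_Half.

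**Figure D4:**
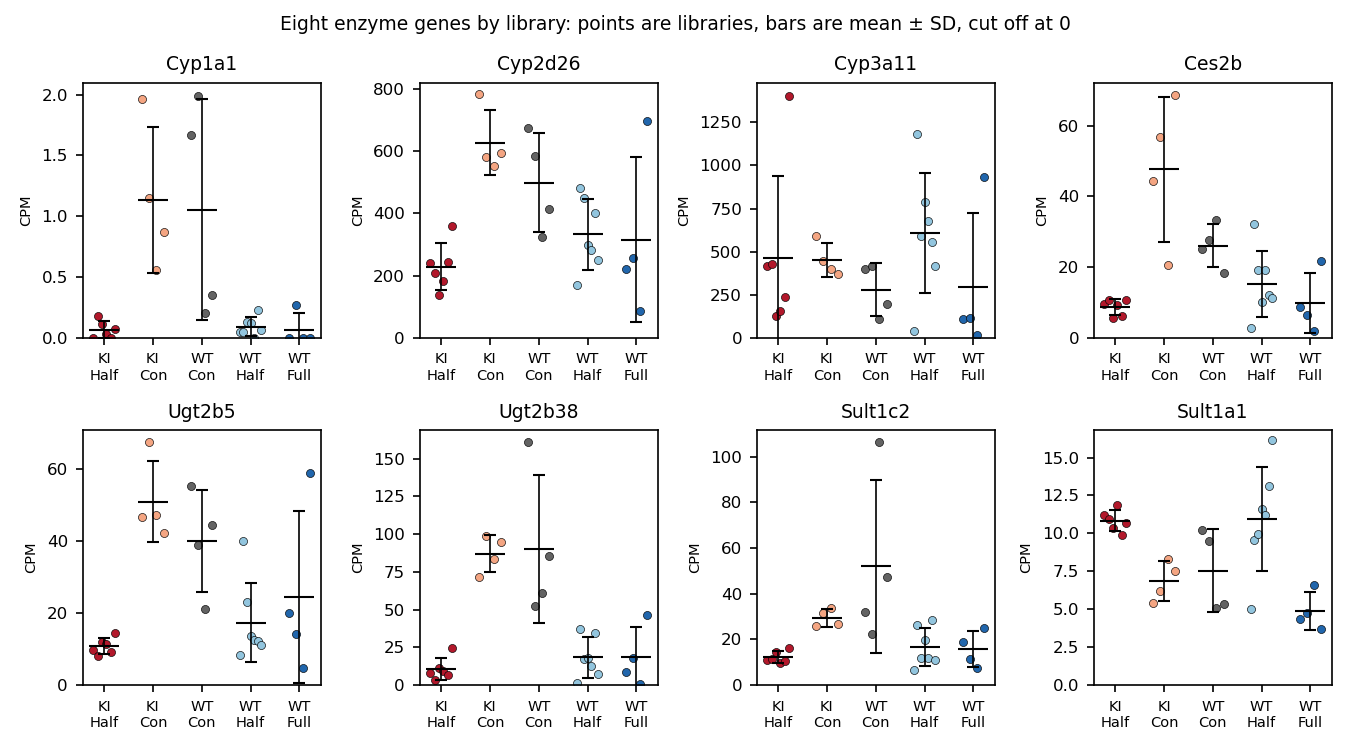
CPM of 8 enzyme genes in each library (points), with mean ± SD per group; SD bars are cut off at 0. Cyp1a1, Cyp2d26, Ces2b, Ugt2b5, Ugt2b38 and Sult1c2 are lower in every KI_Half library than in every KI_Con library, Sult1a1 is higher in all, and Cyp3a11 spans 128 to 1402 CPM within KI_Half.

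The Cyp2 genes held the most members and were split. Cyp2d26, the most abundant P450 per kilobase after Cyp3a13, had 136, 224 and 361 CPM in KI_Half and 783, 581, 553 and 594 CPM in KI_Con, a fall of 1.45 ± 0.22 on the log2 scale (adjusted p = 0.000989). Cyp2c65, an intestinal member of the family that oxidises arachidonic acid, had 102, 121 and 162 CPM in KI_Half and 264, 354, 249 and 280 CPM in KI_Con, a fall of 1.14 ± 0.15 (adjusted p = 0.000532). Cyp2j6, a P450 of the gut, had 66.3, 69.7 and 79.2 CPM in KI_Half and 150, 187, 131 and 115 CPM in KI_Con, a fall of 1.02 ± 0.12 (adjusted p = 0.000419). The KI groups did not overlap for these 3 genes.

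Within the Cyp2c cluster on chromosome 19, Cyp2c55, Cyp2c66, Cyp2c67 and Cyp2c68 also fell, with log2 fold changes of -1.92 ± 0.35, -0.85 ± 0.23, -0.94 ± 0.23 and -1.56 ± 0.28. Cyp2c23, which makes epoxides of arachidonic acid, fell by 1.24 ± 0.16 and Cyp2c29 by 0.46 ± 0.16. The remaining Cyp2 genes that fell were Cyp2u1, a fatty acid hydroxylase (-2.01 ± 0.39), Cyp2s1 (-1.63 ± 0.33), Cyp2d22 (-1.18 ± 0.21) and Cyp2j9 (-0.82 ± 0.27). Cyp2s1 had 19.0, 30.9 and 79.2 CPM in KI_Half and 120, 126, 131 and 124 CPM in KI_Con, and replicates 6 and 7 were the highest KI_Half libraries.

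Cyp2b10 and Cyp3a11, the classical targets of the constitutive androstane and pregnane X receptors, varied widely between libraries of a group. Cyp2b10 had 11.6, 43.0 and 250 CPM (lowest, median, highest) in KI_Half and 140, 68.8, 59.5 and 54.5 CPM in KI_Con, with a log2 fold change of -0.11 ± 0.71 (adjusted p = 0.917). Cyp3a11 had 128, 326 and 1402 CPM in KI_Half and 590, 445, 399 and 371 CPM in KI_Con, with 0.05 ± 0.58 (adjusted p = 0.956). In both genes KI_Half replicate 7 was the highest of its group. The same held for WT_Full replicate 4, where Cyp2b10 was at 341 CPM against 18.6, 14.3 and 1.26 CPM in the other WT_Full libraries, and Cyp3a11 at 935 CPM against 111, 112 and 18.2 CPM.

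Cyp3a13 had 807, 1034 and 1400 CPM in KI_Half and 1287, 1185, 952 and 1209 CPM in KI_Con, with a log2 fold change of -0.13 ± 0.15 (adjusted p = 0.544). The most abundant P450 of the duodenum therefore did not pass the test, and its groups overlapped. Cyp3a25, a close relative of Cyp3a11, had 34.7, 62.8 and 160 CPM in KI_Half and 169, 231, 169 and 144 CPM in KI_Con, and fell by 1.28 ± 0.35 on the log2 scale (adjusted p = 0.0146). KI_Half replicate 7 alone reached the range of KI_Con.

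Carboxylesterases. All 14 Ces genes had negative log2 fold changes in KI_Half against KI_Con, with a median of -0.41, and 4 fell. They lie on chromosome 8, with the Ces1 genes apart from the Ces2 and Ces3 genes, and are given here by gene name only. Ces2b showed the largest fall: it had 5.49, 9.37 and 10.8 CPM (lowest, median, highest) in KI_Half, against 44.4, 56.7, 20.6 and 68.7 CPM in KI_Con. The groups were apart, at a log2 fold change of -2.45 ± 0.30 (adjusted p = 0.000416).

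Ces2e, the most abundant esterase, had 554, 640 and 781 CPM in KI_Half and 966, 927, 854 and 925 CPM in KI_Con, a fall of 0.50 ± 0.11 on the log2 scale (adjusted p = 0.00506). Ces2c, at 190, 240 and 355 CPM in KI_Half and 460, 350, 263 and 438 CPM in KI_Con, did not pass (-0.54 ± 0.20, adjusted p = 0.0547). Ces2g and Ces2a were not called either, at -0.21 ± 0.13 and -0.22 ± 0.15. The Ces2 genes named here differed in log2 fold change from -2.45 to -0.21.

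In Ces1, Ces1e fell by 1.09 ± 0.19 on the log2 scale, with 8.40, 11.4 and 15.6 CPM in KI_Half and 24.1, 29.7, 27.2 and 19.1 CPM in KI_Con. Ces1f, the family's most abundant gene, had 40.4, 62.6 and 91.6 CPM in KI_Half and 85.6, 77.3, 66.4 and 52.8 CPM in KI_Con and was not called (-0.13 ± 0.21). Ces1d, a lipid hydrolase of adipose tissue and liver, was at -0.71 ± 0.35 (adjusted p = 0.131). Ces3a fell by 0.38 ± 0.11, the smallest change called among the members, and Ces3b was at -0.25 ± 0.22 without passing.

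Sulfotransferases. Of 6 Sult genes 4 fell and 1 rose in KI_Half relative to KI_Con. Sult1b1, which sulfates thyroid hormone and small phenols, had 131, 161 and 301 CPM in KI_Half and 432, 421, 338 and 399 CPM in KI_Con, a fall of 1.15 ± 0.21 on the log2 scale (adjusted p = 0.00215). Sult1c2 had 9.80, 10.97 and 16.2 CPM in KI_Half and 25.7, 31.5, 33.7 and 26.7 CPM in KI_Con, a fall of 1.26 ± 0.16 (adjusted p = 0.00048). Both were lower in all KI_Half libraries than in any KI_Con library.

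Sult1a1, the main phenol sulfotransferase, ran the other way. It had 9.89, 10.8 and 11.9 CPM in KI_Half and 5.38, 6.21, 8.33 and 7.54 CPM in KI_Con, a rise of 0.67 ± 0.15 on the log2 scale (adjusted p = 0.00511), and the groups did not overlap. In wild-type mice it had 10.3, 9.51, 5.06 and 5.35 CPM in WT_Con, 4.99, 11.2 and 16.2 CPM (lowest, median, highest) in WT_Half, and 4.33, 4.75, 6.63 and 3.72 CPM in WT_Full. WT_Full over WT_Half gave a log2 fold change of -1.15 ± 0.29, with an unadjusted p of 0.00163 that did not survive adjustment in edgeR (adjusted p = 0.9997). Sult1d1, the most abundant sulfotransferase per kilobase, was at -0.22 ± 0.19 in KI_Half over KI_Con (adjusted p = 0.378). Sult2b1, which sulfates cholesterol, and Sult2a8, a bile acid sulfotransferase of mouse liver, fell by 0.43 ± 0.12 and 0.70 ± 0.15.

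Ethanol in wild-type mice. In WT_Half relative to WT_Con, 1 of 66 members tested was called, as lower, where 1.47% of all genes were called and 0.571% as lower. This gene, Cyp2s1, had 50.3, 70.2 and 82.0 CPM (lowest, median, highest) in WT_Half and 131, 101.5, 296 and 107 CPM in WT_Con. The groups did not overlap and the log2 fold change was -1.22 ± 0.26 (adjusted p = 0.0411), but the gene was not called when WT_Con replicate 1 or 4, or WT_Half replicate 3, 4, 5 or 7, was left out. The 296 CPM belong to WT_Con replicate 3, the library with gastric markers and 53685 summed CPM of Brunner gland markers. Without it the log2 fold change was -0.74 (adjusted p = 0.0471), and with Brunner gland markers as a covariate it was -0.91 and not called (adjusted p = 0.253). The 66 genes had a median log2 fold change of -0.36, with 55 negative. The groups did not overlap for 3 members as lower (Cyp2c23, Cyp2s1 and Ugt2b38; 2.17% of all genes) and for 0 as higher (3.1%). Acinar markers moved with this comparison: 6 of 7 fell, at 12.3 to 53.3 summed CPM in WT_Half and 9.90 to 2245 in WT_Con. Of 8 hepatocyte markers 1 fell, and no marker of the other cell type lists was called. All 5 T cell and all 3 Brunner gland markers had negative log2 fold changes, and all 6 Paneth markers positive ones. The part of these markers was not tested. DESeq2 called 8 members, all lower, where it called 8.67% of all genes, and limma-voom 7 lower and Sult1d1 higher, where it called 7.25%.

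In WT_Full relative to WT_Con, edgeR called 0 of 66 members and 0.00592% of all genes; 11 members and 17.8% of genes had an unadjusted p under 0.05. The median log2 fold change was -0.68, with 59 negative and 7 positive. The groups did not overlap for 6 members as lower (3.76% of all genes) and for 0 as higher (4.24%). The smallest p-values went to Cyp2c23 (-1.66 ± 0.33), Sult1c2 (-1.73 ± 0.53) and Cyp2c29 (-1.25 ± 0.41) among the negative and to Ces1g (0.32 ± 0.41), Cyp2b10 (0.72 ± 1.29) and Ces2a (0.16 ± 0.35) among the positive. Cyp2c23 had 2.24, 2.51, 1.15 and 3.18 CPM in WT_Full and 9.24, 6.19, 6.87 and 6.41 CPM in WT_Con, so that these groups did not overlap, at an adjusted p of 0.127. The authors' deposited table for WT_Full against WT_Con has an adjusted p under 0.05 for 13 members, all lower, and for 11.5% of all genes. Among its 13 are Cyp2c23 at -1.67, Sult1c2 at -1.73 and Cyp1a1 at -4.03 on the log2 scale. The rest are Cyp2c67, Cyp2d10, Ugt1a9, Ugt2b36, Ces3a, Cyp2a5, Cyp2c29, Cyp2c50, Cyp2c54 and Cyp2j5. From Ces3a onward, these genes had their lowest level of all libraries in WT_Full replicate 4, which is described below. Acinar markers summed to 12.3 to 19.9 CPM in WT_Full, against 9.90 to 2245 CPM in WT_Con. All 7 had negative log2 fold changes (median -7.60), edgeR called 0 of them, and their part was not tested. No fit left out the WT_Con libraries high in Ctrb1 as a set.

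WT_Full replicate 4 carried much of the spread. Without it, edgeR called 10 members, all lower, beside 12.2% of all genes: Ces2b, Ces2c, Cyp2c23, Cyp2c65, Cyp2c68, Cyp2j6, Cyp3a25, Sult1d1, Ugt1a7c and Ugt2b34. Ugt1a7c was at 96.4, 71.3 and 87.6 CPM in WT_Full replicates 1 to 3 and at 368 CPM in replicate 4, against 222, 284, 147 and 200 CPM in WT_Con. DESeq2 with all libraries called 3 members (5.62% of all genes) and limma-voom 7 (8.35%), all lower. The 12 enterocyte markers summed to 51884 CPM in WT_Full replicate 4 and 18862 CPM in replicate 3, with a WT_Full median of 27524 CPM. All members summed to 8809 CPM in replicate 4 and 2007 CPM in replicate 3. The part of the enterocyte markers in this spread was not tested.

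No member was called in WT_Full against WT_Half by edgeR (0% of all genes called, 2 members and 4.6% of genes at an unadjusted p under 0.05), and DESeq2 called Sult1a1, lower. Both wild-type ethanol comparisons use the same 4 control libraries, so their values are not independent of each other.

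Genotype. On control diet edgeR called no member in KI_Con against WT_Con and 0% of all genes; 6 members and 9.9% of genes had an unadjusted p under 0.05, and DESeq2 and limma-voom called none. The groups did not overlap for 0 members as lower (1.61% of all genes) and for 3 as higher (2.96%), namely Ces2a, Cyp2c66 and Cyp2u1. Cyp2u1 had the smallest p, with 11.5, 16.2, 10.2 and 9.64 CPM in KI_Con and 8.17, 6.82, 5.04 and 8.79 CPM in WT_Con (log2 fold change 0.71 ± 0.23, adjusted p = 0.502). Ces2a and Sult2b1 came next, at 0.63 ± 0.22 and 0.55 ± 0.20. Sult1c2, at -0.83 ± 0.42, had the smallest p among negative values, followed by Cyp2d40 and Cyp2c70, and for Sult1c2 the WT_Con library with gastric markers held 107 CPM against 22.3 to 47.2 CPM in the other 3.

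On the lower ethanol diet edgeR called no member in KI_Half against WT_Half and 0% of all genes; 9 members and 14.2% of genes had an unadjusted p under 0.05. The smallest p-values were those of Ugt2b35 (-0.80 ± 0.25), Ugt2a3 (-0.75 ± 0.24) and Cyp2d22 (-0.64 ± 0.20), and among positive values Cyp2b9 (1.09 ± 0.44), Cyp2t4 (0.88 ± 0.36) and Ces1g (0.31 ± 0.27). Ugt2a3 had 21.9, 27.0 and 46.9 CPM in KI_Half and 24.7, 48.9 and 78.7 CPM in WT_Half (lowest, median, highest), so the groups overlapped. DESeq2 called none and limma-voom called 6, all lower, where it called 5.23% of all genes: Ces2h, Cyp2d22, Cyp2s1, Sult1b1, Ugt2a3 and Ugt2b35. The authors' deposited table for this comparison has no member and 1.24% of all genes with an adjusted p under 0.05.

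Whether ethanol acted differently in the 2 genotypes was tested as an interaction over the 21 libraries without WT_Full. No member and 0% of all genes were called by edgeR, and 14 of 67 members and 12.7% of genes had an unadjusted p under 0.05. Of these 14, 13 were more negative in KI, such as Cyp2d22 (-1.09 ± 0.35, adjusted p = 0.334) and Ces2b (-1.68 ± 0.59). Cyp2b9, which stayed under 2 CPM in every library, was the exception at 2.20 ± 0.89. DESeq2 called none and limma-voom called 9, all negative, where it called 6.69% of all genes. The larger count of falls in KI than in WT is therefore not shown by edgeR to be a difference between the genotypes. A test for any difference among the 5 groups called 22 of the 67 members and 28.6% of all genes; at an unadjusted p under 0.05 these were 33 members and 42.9%.

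Members lowest in 1 library. In WT_Full replicate 4, 21 of the 67 members had their lowest level of the 25 libraries, while 6 others had their highest. The 21 are all of low level, at most 14.9 CPM on average, and include liver-type enzymes such as Ces3a, Ces1c, Cyp2f2, Cyp2a5, Cyp1a2, Cyp2c29, Cyp2d9 and Ugt2b1. Ces1c was at 2.71 CPM in that library and between 9.20 and 24.4 CPM in the other 24; Cyp2f2 was at 0.937 CPM there and between 4.51 and 10.4 CPM in the others. Of the 21, 16 had their highest level in WT_Con replicate 1, the library with the most Alb (1086 CPM). Other libraries also held many lowest levels: WT_Full replicate 3 for 28 members and WT_Half replicate 1 for 8.

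For 20 of the 21, those with reads in every library, the highest level was a median of 11.3 times the lowest in CPM but 2.70 times as a ratio to Alb, with Ces1b at 9.00, Cyp2b9 at 11.4 and Sult1a1 at 5.73 times as the widest ratios. For 45 of the other 46 the same medians were 6.21 times in CPM and 29.5 times as a ratio to Alb. Ces1c had the narrowest range of the 20, with a highest ratio to Alb 1.67 times its lowest over all 25 libraries, WT_Full replicate 4 included. The group was picked by this library's values, so these figures describe it and test nothing. The hepatocyte markers without Apob and Cps1, which the gut also makes, summed to 99.1 CPM in WT_Full replicate 4 and to at least 470 CPM in every KI_Half library, and Cyp7a1 was at 0 in that replicate. The markers left out did not follow Alb there: Apob was at 2944 CPM and Cps1 at 408 CPM. With them, the 8 hepatocyte markers summed to 3451 CPM in WT_Full replicate 4, the highest of WT_Full.

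**Figure D5:**
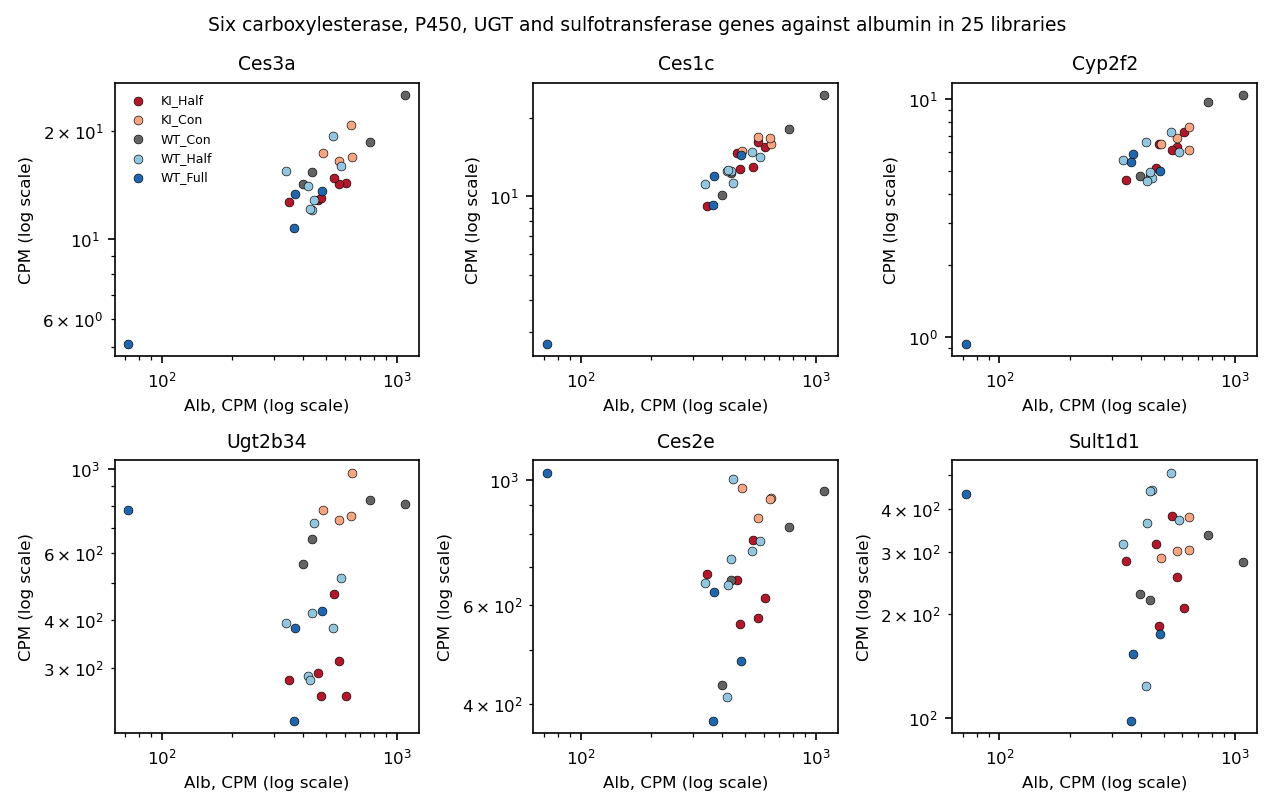
CPM of 3 genes at their lowest in WT_Full replicate 4 (Ces3a, Ces1c, Cyp2f2) and 3 others (Ugt2b34, Ces2e, Sult1d1) against Alb in the 25 libraries, on log axes; the genes were picked after their values were seen. In the upper panels WT_Full replicate 4, at 72.2 CPM of Alb, is lowest in both directions; in the lower panels it is among the highest.

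In KI_Half relative to KI_Con, 4 of the 21 fell (Ces3a, Cyp1a2, Cyp2c29 and Sult2a8) and 1 rose (Sult1a1), with a median log2 fold change of -0.27. Of the other 46, 29 fell and 1 rose, with a median of -0.97. None of 8 hepatocyte markers was called in that comparison, and the 6 without Apob and Cps1 summed to 470 to 842 CPM in KI_Half and 656 to 888 CPM in KI_Con. The order differed in wild-type mice. Medians of the 21 and the other 46 were -0.87 and -0.57 in WT_Full over WT_Con, and -0.40 and -0.32 in WT_Half over WT_Con. The 21 were picked by a WT_Full library, so their WT_Full median is not independent of that choice. Of the 8 hepatocyte markers 7 were negative in WT_Full (median -0.88, 0 called) and 7 in WT_Half (median -0.46, 1 called lower). The part of liver-type RNA in these changes was not tested.

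Genes around the enzymes. Of 20 regulators of these enzymes, 6 fell and 4 rose in KI_Half relative to KI_Con. Ahr, the aryl hydrocarbon receptor, had 11.8 ± 2.21 CPM in KI_Half and 20.6 ± 3.04 CPM in KI_Con and fell by 0.79 ± 0.16 on the log2 scale; Nr1i3, the constitutive androstane receptor, fell by 0.93 ± 0.17. Nr1i2, the pregnane X receptor, was not called (-0.14 ± 0.16, adjusted p = 0.518). Nr1h4, the bile acid receptor, rose to 94.8 ± 38.6 CPM in KI_Half against 33.6 ± 7.57 CPM in KI_Con (log2 fold change 1.505 ± 0.32), and Hnf4a, a factor that sustains enterocyte and liver genes, rose by 0.44 ± 0.11.

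Of 8 genes that supply P450 enzymes with electrons, 4 fell, among them Cyb5b (-1.15 ± 0.22) and Cyb5r3 (-0.92 ± 0.14). Por, the main reductase of microsomal P450 enzymes, was not called, at 874 ± 141 CPM in KI_Half and 691 ± 145 CPM in KI_Con. Of 9 genes for the glucuronate and sulfate donors and their transport, 3 fell and 2 rose. Ugdh, which makes UDP-glucuronic acid, had 199 ± 56.7 CPM in KI_Half and 672 ± 40.1 CPM in KI_Con, a fall of 1.75 ± 0.18 (adjusted p = 0.000276). In wild-type mice Ugdh had 595 ± 113 CPM in WT_Con, 284 ± 96.6 CPM in WT_Half and 295 ± 238 CPM in WT_Full, and neither WT_Half nor WT_Full passed against WT_Con (adjusted p = 0.0535 and 0.291). Slc35b3, a transporter of the sulfate donor, rose by 0.81 ± 0.21.

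Of 22 other phase I genes 18 fell and 2 rose. Fmo5, a flavin monooxygenase, had 83.1 ± 53.5 CPM in KI_Half and 441 ± 39.5 CPM in KI_Con (-2.39 ± 0.38), and Akr1b7, an aldose reductase-like enzyme, had 64.7 ± 19.1 and 17.1 ± 4.11 CPM (1.93 ± 0.25). Of 30 other phase II genes tested, 10 fell and 3 rose, with Mgst1 at 0.87 ± 0.11 and Gstz1 at -0.60 ± 0.13. Akr1b7 and Mgst1 were also the only genes of these lists called in WT_Half against WT_Con, at 2.30 ± 0.51 and 0.80 ± 0.17.

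Of 17 transporters that move drugs and conjugates, 10 fell and 2 rose. Abcc2, which exports glucuronides into the gut lumen, had 183 ± 70.2 CPM in KI_Half and 640 ± 79.5 CPM in KI_Con. Slc22a4 fell by 2.17 ± 0.30 and Slc22a18 by 0.90 ± 0.15 on the log2 scale. The counts of these lists stand beside the 37.9% of all genes called in the comparison and beside the fall of the enterocyte markers given above, and the part of the markers was not tested.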

How the data were processed

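The authors deposited read counts per gene for 25 libraries. Per the submitters' processing notes, FastQC, Trimmomatic, HISAT2, SAMtools, featureCounts and DESeq2 were used with GRCm38; no source used here states the annotation, the strand setting or how multiply mapped reads were treated. The authors' deposited tables also hold log2 fold changes and adjusted p-values (DESeq2, per the submitters' processing notes) for WT_Full against WT_Con and KI_Half against WT_Half.

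Repeated lines of a gene (213) were merged, leaving 17007 genes. Counts were scaled by TMM; levels are CPM, and CPM per kb uses GENCODE M21 exon lengths. Each comparison was fitted to its own groups in R 4.3.3 with the edgeR 4.0.16 quasi-likelihood F test (two-sided), after filterByExpr, with Benjamini-Hochberg adjustment over all genes tested and a threshold of 0.05. DESeq2 1.42.0, limma-voom 3.58.1 with sample quality weights, other scalings, filters and covariates, and leaving out libraries were alternatives. Leaving out the KI_Con libraries above 10 CPM of Ctrb1 was added after seeing the data. The scripts were tested on simulated data.

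The members, gene lists and comparisons were chosen with earlier results of these data known. Genes are named by a rule: per family, the 3 with the highest level per kb and those past the threshold, and, where none passed, 3 negative and 3 positive ones of smallest p; for each other list, the 2 with the smallest 5-group p. Ahr, Nr1i3, Nr1i2, Por, Abcc2, Ugt2b1, Ces1b, Ces1c, Ces2h, Cyp2c50, Cyp2c54, Cyp2d9, Cyp2d10, Cyp2f2, Cyp2j5 and the marker genes Alb, Apob, Cps1, Cyp7a1 and Ctrb1 fall outside it and were chosen after their values were seen. In no comparison was every same-numbered pair correlated over 0.1, so replicate numbers were not taken to pair the samples.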

Additional observations from a re-analysis of the deposited data

Results flagged for a closer look

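Of 260 combinations of a gene and a group, 30 had 1 library far from the rest of its group by Dixon's test. A rate of 1 in 20 would give 13 if the combinations were independent and the values normally spread. Genes of 1 library can move together and the share over all genes is not given, so 30 is not judged against 13. All values are CPM. KI_Half replicate 7 was the high library in 10 of them. There Cyp3a11 was at 1402, Cyp2b10 at 249.8, Cyp3a25 at 160, Cyp2c68 at 53.4, Ces1d at 26.1, Ces1g at 7.50, Sult1b1 at 301, Ugt2a3 at 46.9, Ugt2b34 at 470 and Ugt2b38 at 24.7. WT_Full replicate 4 was the high library for Cyp3a11 at 935, Cyp2b10 at 341, Ugt1a7c at 368 and Ces1d at 23.6, and WT_Full replicate 2 for Cyp1a1 at 0.270.

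In KI_Con, replicate 2 was high for Cyp2c66 at 52.7, Sult1d1 at 379 and Ugt1a6a at 10.8, and replicate 1 for Cyp2b10 at 139.95. In WT_Con, replicate 3 was high for Cyp2s1 at 296 and low for Cyp2c66 at 9.40, and replicate 1 was high for Cyp2j9 at 3.30. In WT_Half, replicate 2 was high for Cyp2c55 at 10.1, Cyp2j9 at 4.54 and Ugt2b35 at 67.3, and replicate 3 for Cyp2u1 at 8.87. WT_Half replicate 1 was low for Cyp2d22 at 26.8 and Cyp3a13 at 339. In KI_Half, replicate 6 was high for Cyp2j9 at 2.59 and replicate 1 low for Cyp2a5 at 3.30.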

How the results depend on the processing

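In KI_Half against KI_Con the 35 members called became 24 to 43 under the other tools, scalings, filters and covariates and 30 to 38 when 1 library was left out, but 19 without the KI_Con libraries above 10 CPM of Ctrb1. In WT_Full against WT_Con the 0 became 3 with DESeq2, 7 with limma-voom, 8 with 1 edgeR fit of all 25 libraries and 0 to 10 with 1 library left out, the 10 being without WT_Full replicate 4. In WT_Half against WT_Con the 1 became 8 with DESeq2, 8 with limma-voom, 4 with the fit of all 25, 2 with no filter on low counts, 0 with Brunner gland markers as a covariate and 0 to 5 with 1 library left out. Limma-voom also gave 6 in KI_Half against WT_Half, 9 in the interaction and 40 in the 5-group test, where the 22 became 16 to 34 with 1 library left out. DESeq2 gave 1 in WT_Full against WT_Half. No named gene called in these comparisons changed direction. The share of all genes called moved too. In KI_Half against KI_Con it was 37.9%, and 15.1% without those KI_Con libraries. In WT_Full against WT_Con it was 0.00592%, 5.62% with DESeq2, 8.35% with limma-voom and 12.2% without WT_Full replicate 4. In WT_Half against WT_Con it was 1.47%, 8.67% with DESeq2 and 7.25% with limma-voom. Where no such share is given, here or below, the counts are not read as a result about the members. The cause of these moves was not tested.

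The replicate numbers were not taken to pair the samples, since in no comparison were all same-numbered pairs correlated over 0.1: correlations were 0.0133 to 0.212 in KI_Half against KI_Con, -0.278 to -0.0437 in WT_Half against WT_Con, -0.17 to 0.0998 in WT_Full against WT_Con and -0.305 to -0.018 in KI_Half against WT_Half. In KI_Con against WT_Con 3 of 4 pairs were over 0.1 (-0.0127 to 0.243), and those 3 correlated best with their own number; in WT_Full against WT_Half 1 of 4 did (-0.0962 to 0.393). With the replicate block, 37 members were called in KI_Half against KI_Con and 0 in WT_Half against WT_Con, where Cyp2s1 was at -1.05 (adjusted p = 0.482). Genes of few reads, such as Cyp1a1, and genes that share sequence limit what the counts can resolve.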
